A study of Homo sapiens with 12 samples.

Results

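Transcripts of 10 genes were followed in clear cell renal cell carcinoma (ccRCC) cells. These genes encode chemoattractants, mainly of neutrophils and monocytes, and the interleukin-1 cytokines. They are CXCL1, CXCL2, CXCL3, CXCL5, CXCL6, CXCL8, CCL2, CCL20, IL1A and IL1B, taken by gene symbol from a table of 45478 genes. All 10 were in the table, and 8 of them passed a filter on low counts that 19929 genes passed. IL1A and CXCL6 did not pass it and are given as counts only.

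mRNA was sequenced from 12 libraries, 3 in each of 4 groups. 786-O and A498 are established human ccRCC cell lines, and these names alone stand for the parental cultures here. Resistant 786-O was derived from 786-O by selection at 4 µM sunitinib, an inhibitor of receptor tyrosine kinases, and resistant A498 is labelled as derived from A498 by selection at 2 µM, both over 4 months or more than 20 passages. The treatment label reads none for all 12 libraries, while the code in every sample title holds the letters veh, which the labels do not explain. Each resistant group is 1 selected culture, and whether the 3 libraries of a group came from separate cultures is not stated, so the p-values measure the spread between these libraries, which may be technical. The labels put the 4 groups into 4 different batches, and batch and group cannot be told apart in any comparison below.

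Total counts ranged from 20042519 to 47972092 per library. The libraries labelled resistant A498 went against their label. Across genes, the median Pearson r to the libraries of A498 was 0.87, to those of 786-O 0.951 and to those of resistant 786-O 0.982. A set of 62 genes read in A498 but not in 786-O stood at a median of 0.362% of the A498 level in them, and a set of 33 genes read in 786-O but not in A498 stood at 94.6% of the 786-O level. These values go against an origin of these libraries from A498 as sequenced here, and how they arose was not tested. For this reason resistant A498 is set beside both A498 and 786-O. Replicate 2 of resistant 786-O stood apart from replicates 1 and 3, and results that rest on it are also given without it. The renal carcinoma markers PAX8, VIM, KRT8 and KRT18 were read in all groups, while CA9 was at or near 0 outside A498 and NDUFA4L2, a further clear cell carcinoma marker, was at only 0.474 to 0.573 CPM (counts scaled to normalized library size) on average in every group. The summed level of 9 myeloid markers was 0.718 to 3.95 CPM per library, with MPO at 0 in every library. The sum was 2.13 to 2.48 CPM in 786-O and 3.36 to 3.95 in A498, and lower in the resistant groups, with 0.831 to 1.19 in resistant 786-O and 0.718 to 1.02 in resistant A498. Most of it was CSF1R in 786-O (1.9 CPM on average) and ITGAM in A498 (2.46). PTPRC, LYZ, FCGR3B and TYROBP averaged at most 0.0444 CPM in every group. CD14 averaged 0.174 CPM in 786-O and 0.359 in resistant 786-O, against 0.845 in A498 and 0.409 in resistant A498. The part of these markers in the results below was not tested.

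The CXC chemokines of this group carry a glutamate-leucine-arginine motif before their first cysteines and draw neutrophils through the receptors CXCR1 and CXCR2. CCL2 draws monocytes through CCR2, and CCL20 draws lymphocytes and dendritic cells through CCR6. IL1A and IL1B bind IL1R1 with its partner IL1RAP, which activates NF-kB, a transcription factor family known to induce most of these chemokines as well as IL1B itself. Their mRNAs are known to be short-lived, through AU-rich elements in the 3′ untranslated region.

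The 6 CXC genes lie in 1 cluster on chromosome 4 of GRCh38, from the start of CXCL8 at position 73740519 to the end of CXCL2 at position 74099196. CCL2 is on chromosome 17, and CCL20, IL1A and IL1B are on chromosome 2. RefSeq promoter sequences of GRCh38.p14, 250 bases before to 50 bases after the start site, were found for 9 of the 10 genes. The kB word GGAATTTCC, a form of the sequence that NF-kB binds, was searched on both strands and found in 6 of the 9 genes, all the CXC genes. In all 35116 promoters of this length the share was 0.461%. A further, longer form of the kB word had been searched together with this one; CCL20 then also had a match and the share of all promoters was higher. This narrower word was kept after both results were seen, so its restriction to the CXC genes depends on the word chosen. The word began 77 to 91 bases upstream of the start site in all 6. The windows around it are printed because these genes, with the same word at nearly the same place, had very different transcript levels below. Capitals mark the kB word, and each sequence is on the gene's own strand.
CXCL8, chr4:73740453-73740511, plus strand: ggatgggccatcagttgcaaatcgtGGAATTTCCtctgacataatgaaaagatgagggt
CXCL1, chr4:73869290-73869348, plus strand: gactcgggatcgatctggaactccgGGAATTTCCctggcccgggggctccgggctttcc
CXCL3, chr4:74038734-74038792, minus strand: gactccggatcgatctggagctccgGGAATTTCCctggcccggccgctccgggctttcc
CXCL2, chr4:74099239-74099297, minus strand: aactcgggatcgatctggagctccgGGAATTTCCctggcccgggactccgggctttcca
CXCL5, chr4:73998734-73998792, minus strand: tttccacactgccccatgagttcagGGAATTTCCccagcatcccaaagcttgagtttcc
CXCL6, chr4:73836564-73836622, plus strand: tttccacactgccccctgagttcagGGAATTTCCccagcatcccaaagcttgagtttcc

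By promoter sequence the CXC genes held 1 trio and 1 pair. Over the 300 bases CXCL1 and CXCL3 were 82.5% identical, CXCL2 and CXCL3 73.8%, and CXCL1 and CXCL2 71.9%, while CXCL5 and CXCL6 were 83.1% identical. CXCL8 was 45.2 to 48% identical to each of the 5 others. CCL20, IL1A and IL1B did not hold the kB word in this window. The AP-1 word TGANTCA was found in CXCL8 and IL1A and in 7.71% of all promoters. A match of letters is a description of the window, not a site of binding.

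CXCL8, which encodes interleukin-8, a strong neutrophil attractant, was read at almost the same level in 3 of the 4 groups. The 3 libraries had 48, 46.1 and 45 CPM in 786-O, 52.4, 42 and 45.3 in resistant 786-O, and 41.1, 43.4 and 46 in A498. In resistant A498 they had 5.67, 5.55 and 4.07 CPM, far below every library of the other groups, which overlapped one another. In resistant 786-O the log2 fold change against 786-O was 0.01 (SE 0.09, 95% interval −0.18 to 0.19, adjusted p = 0.94). Resistant A498 was lower by 8.55-fold than A498 (log2 fold change −3.10, SE 0.11, adjusted p = 2.4e-12) and by 9.11-fold than 786-O (log2 fold change −3.19, SE 0.11, adjusted p = 5.1e-12). The fall in resistant A498 was therefore of like size whichever parental line was the reference.

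CXCL1 encodes a further CXCR2 ligand, first described as a melanoma growth factor. It had 8.97, 8.72 and 8.96 CPM in 786-O and 3.37, 3.02 and 3.94 in resistant 786-O. It had 2.17, 2.84 and 2.17 CPM in A498 and 0.447, 0.383 and 0.313 in resistant A498, where only 8 to 12 reads per library were counted. No 2 groups overlapped, and the order was 786-O, resistant 786-O, A498 and resistant A498 from high to low. The fall from 786-O to resistant 786-O was 2.58-fold (log2 fold change −1.37, SE 0.12, adjusted p = 7.3e-08). From A498 to resistant A498 it was 6.13-fold (log2 fold change −2.62, SE 0.22, adjusted p = 3.9e-08). Against 786-O, resistant A498 was lower by 23-fold (log2 fold change −4.53, SE 0.18, adjusted p = 2.4e-11). CXCL1 thus fell in both resistant groups, whichever parental reference was taken for resistant A498.

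CXCL2 and CXCL3 encode close relatives of CXCL1, with the same receptor. CXCL2 had 3.16, 2.82 and 2.75 CPM in 786-O, 3.74, 3.16 and 3.87 in resistant 786-O, 3.82, 4.23 and 4.27 in A498 and 1.27, 0.909 and 1.41 in resistant A498. The 3 libraries of resistant A498 lay below all others, and the lowest of resistant 786-O and the highest of 786-O were both at 3.16 CPM. CXCL2 was 1.24-fold higher in resistant 786-O than in 786-O (log2 fold change 0.31, SE 0.13, adjusted p = 0.046). This call was lost in 13 of 23 alternative settings, with adjusted p up to 0.15. They include a demand for a change over 2-fold, which a change of this size fails by construction, and an unadjusted test on raw counts. In resistant A498 it fell by 1.76 on the log2 scale against A498 (SE 0.16, adjusted p = 1.3e-07) and by 1.26 against 786-O (adjusted p = 7.6e-06).

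CXCL3 was read less deeply, with 11 to 50 counts per library. It had 0.921, 0.75 and 0.821 CPM in 786-O, 1.02, 0.801 and 0.962 in resistant 786-O, 1.19, 0.976 and 1.03 in A498 and 0.634, 0.574 and 0.43 in resistant A498. As for CXCL2, the resistant A498 libraries were the lowest 3. The log2 fold change of resistant 786-O against 786-O was 0.16 (95% interval −0.24 to 0.57, adjusted p = 0.45). CXCL3 fell in resistant A498 by 0.97 on the log2 scale against A498 (SE 0.23, adjusted p = 0.0016). Against 786-O it fell by 0.60 (SE 0.23, adjusted p = 0.035), and this call was lost in 10 of 23 alternative settings. They include the demand for a change over 2-fold, which it fails by construction.

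CXCL5 encodes a CXCR2 ligand of epithelial cells and had the widest log2 fold change between the parental lines of the 8 genes tested. It had 100, 104 and 104 CPM in 786-O, 51, 68 and 44 in resistant 786-O and 16.9, 17.1 and 15.3 in resistant A498. In A498 only 4, 1 and 5 reads were counted, which is 0.0465 to 0.184 CPM. No 2 groups overlapped, and resistant A498 lay between A498 and resistant 786-O. Resistant 786-O fell 1.89-fold against 786-O (log2 fold change −0.92, SE 0.11, adjusted p = 3.8e-06), and by 1.11 on the log2 scale without replicate 2. Resistant A498 fell by 2.64 on the log2 scale against 786-O (SE 0.13, adjusted p = 1.6e-10). Against A498 it was higher (log2 fold change 7.05, SE 0.30, adjusted p = 1.8e-11), with a ratio of summed counts per library size of 137 (95% interval 74 to 285 for counting error only).

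The direction of CXCL5 in resistant A498 therefore turned with the parental reference. This gene also shares 422 exon bases with an unnamed gene on the opposite strand, ENSG00000287037, which had 1121 to 1285 counts in 786-O, 916 to 1149 in resistant 786-O, 1 to 3 in A498 and 119 to 145 in resistant A498. The counts did not keep the strands well apart, since the opposite-strand neighbour of GAPDH had 33156 to 128641 counts per library beside 70306 to 256620 for GAPDH. Reads of CXCL5 and of its antisense neighbour cannot be told apart here.

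CXCL6, whose promoter was the most like that of CXCL5, had 1 read in 1 library of 786-O and none in the other 11 libraries. A count of 0 over the 3 libraries of a group allows up to 0.0217 CPM in resistant 786-O, 0.036 in A498 and 0.0409 in resistant A498, for counting error only. In 786-O the paired gene CXCL5, whose printed promoter window is nearly the same, had 12486 reads in sum.

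CCL2 encodes the monocyte attractant MCP-1 and led in A498. It had 63.1, 66.4 and 70.9 CPM in A498, against 3.92, 3.44 and 3.97 in 786-O, 11.5, 4.12 and 11.7 in resistant 786-O and 4.7, 3.88 and 4.85 in resistant A498. A498 stood far above all other groups, and replicate 2 of resistant 786-O lay among the resistant A498 libraries. CCL2 rose in resistant 786-O against 786-O by 2.42-fold (log2 fold change 1.27, SE 0.27, adjusted p = 0.00076). Without replicate 2 the log2 fold change was 1.61 (adjusted p = 8.9e-18). Resistant A498 was lower than A498 by 14.8-fold (log2 fold change −3.89, SE 0.27, adjusted p = 5.1e-09), and its difference from 786-O was 0.25 on the log2 scale (95% interval −0.43 to 0.94, adjusted p = 0.51). That difference passed the threshold at the same size when replicate 2 of resistant 786-O was left out (adjusted p = 0.042), since all groups share 1 estimate of the spread.

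CCL20, the ligand of CCR6, was read mainly in resistant 786-O. It had 2.37, 1.69 and 2.62 CPM there, from 116, 74 and 120 reads. The other groups had 5 to 7 reads per library in 786-O, 1 to 9 in A498 and 5 to 10 in resistant A498, which is at most 0.373 CPM. Every library of resistant 786-O lay above every other library. The rise from 786-O to resistant 786-O was 14-fold (log2 fold change 3.81, SE 0.30, adjusted p = 3.5e-08). Resistant A498 had log2 fold changes of 0.86 against A498 (95% interval −0.15 to 1.87, adjusted p = 0.12) and 1.05 against 786-O (95% interval 0.09 to 2.01, adjusted p = 0.054). The latter passed the threshold in 7 of 21 alternative settings.

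IL1B, the secreted interleukin-1 that needs cleavage by caspase-1, was rare in all groups. The counts were 1, 2 and 0 in 786-O, 16, 25 and 10 in resistant 786-O, 16, 6 and 14 in A498 and 8, 5 and 4 in resistant A498. The 786-O libraries lay below all 9 others, which overlapped one another. The log2 fold change was 3.72 in resistant 786-O against 786-O (SE 0.65, adjusted p = 0.00012) and 3.06 in resistant A498 against 786-O (SE 0.78, adjusted p = 0.0032). As 786-O held 3 reads in sum, these fitted values depend on the prior count, and the ratios by library size were 15 (95% interval 4.84 to 74.9) and 9.42 (2.72 to 50.1) for counting error only. Without replicate 3 of 786-O the fitted values were 3.12 and 2.46, and without its replicate 2 they were 4.57 and 3.90, all still past the threshold. Without replicate 2 of resistant 786-O the former was 3.29, and the former call was lost in 1 of 21 alternative settings. Against A498, the log2 fold change of resistant A498 was −0.88 (95% interval −1.92 to 0.17, adjusted p = 0.12).

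IL1A, the interleukin-1 that is active without cleavage, was counted at 9, 6 and 4 reads in 786-O, 7, 1 and 4 in resistant 786-O, 9, 8 and 6 in A498 and 4, 3 and 4 in resistant A498. In CPM, the 786-O libraries overlapped those of every other group, and the A498 libraries lay above those of both resistant groups. The ratio of resistant 786-O to 786-O was 0.556 (95% interval 0.246 to 1.21) and that of resistant A498 to A498 0.543 (0.239 to 1.16), both for counting error only. A difference was not detectable in either of these pairs at this depth.

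**Figure D1:**
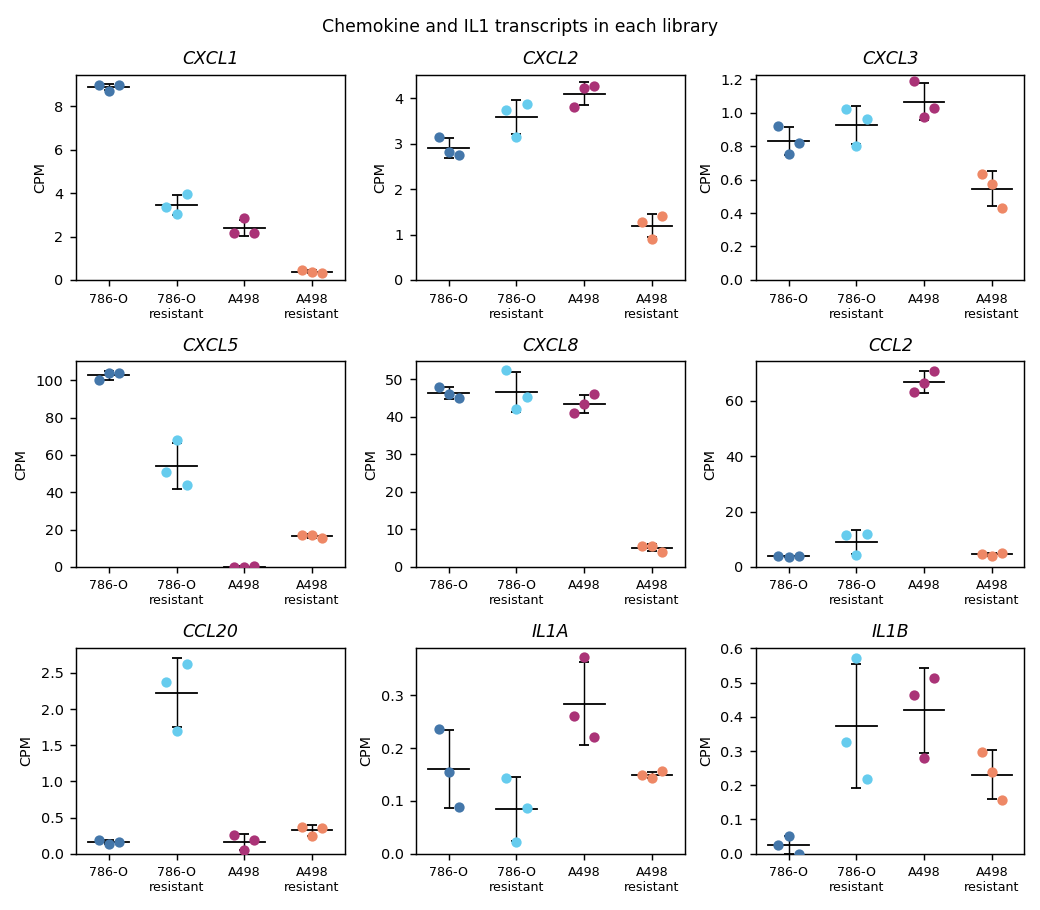
Level of 9 of the 10 genes in CPM (linear axes from 0) in the 3 libraries of each group, with a line at the mean and bars of 1 SD; CXCL6, with 1 read in all, is not drawn. Resistant A498 is lowest for CXCL1, CXCL2, CXCL3 and CXCL8, A498 is highest for CCL2, and resistant 786-O is highest for CCL20.

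Over the 8 genes tested, 6 passed the test between resistant 786-O and 786-O, where 68.5% of all genes tested did. Of these 6, 4 were higher (CXCL2, CCL2, CCL20 and IL1B; 35% of all genes were) and 2 were lower (CXCL1 and CXCL5; 33.5% of all genes were). The share called was thus near that of all genes. The median log2 fold change of the 8 was 0.23, beside 0.03 for all genes. The count was 6 as well without replicate 2 of resistant 786-O. The neutrophil attractants did not move as one, since CXCL1 and CXCL5 fell, CXCL2 was called higher, and CXCL3 and CXCL8 did not pass the test.

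Between resistant A498 and A498, 6 of 8 passed, where 72.7% of all genes did. CXCL1, CXCL2, CXCL3, CXCL8 and CCL2 were lower (36.4% of all genes were lower) and CXCL5 was higher (36.3% were higher). Between resistant A498 and 786-O, 6 of 8 passed, where 63.6% of all genes did. CXCL1, CXCL2, CXCL3, CXCL5 and CXCL8 were lower (32.1% of all genes were) and IL1B was higher (31.6% were). The median log2 fold change of the 8 was −1.36 against A498 and −0.93 against 786-O, with 0 for all genes in both. This comparison and that of resistant 786-O share the 786-O libraries, and without replicate 2 of resistant 786-O it had 8 calls, CCL2 and CCL20 being added. The calls that held with either reference were the lower levels of CXCL1, CXCL2, CXCL3 and CXCL8.

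**Figure D2:**
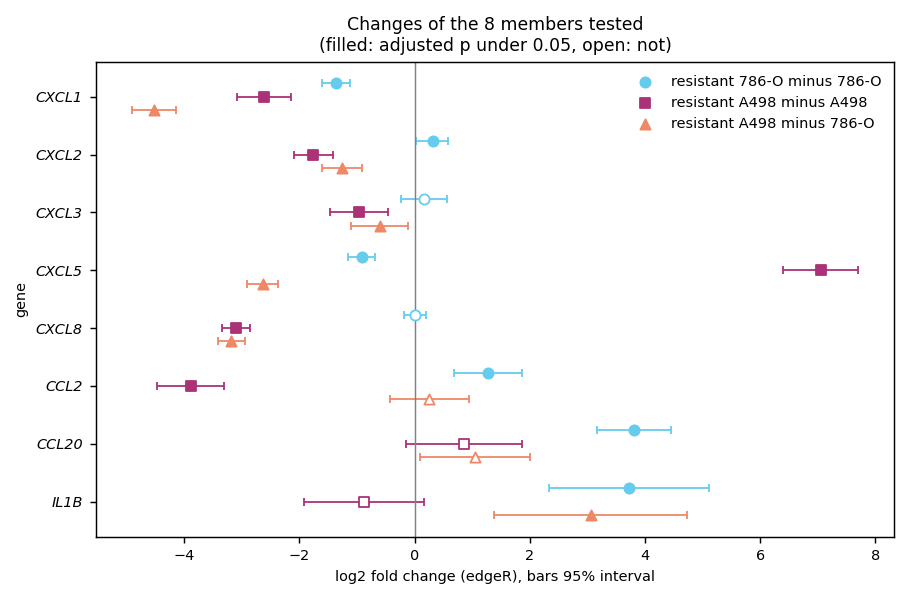
Log2 fold change of the 8 genes tested (horizontal axis) in resistant 786-O against 786-O (circles), resistant A498 against A498 (squares) and resistant A498 against 786-O (triangles), with 95% intervals from edgeR; filled symbols passed an adjusted p of 0.05. CXCL1 is below 0 in all 3 comparisons, and CXCL5 is at 7.05 against A498 but at −2.64 against 786-O.

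Set directly against resistant 786-O, resistant A498 was lower for 7 of the 8 genes, where 46.1% of all genes passed this test in either direction and 23% were lower. The log2 fold changes were −3.16 for CXCL1, −1.57 for CXCL2, −0.77 for CXCL3, −1.72 for CXCL5, −3.20 for CXCL8, −1.02 for CCL2 and −2.76 for CCL20. For 6 of the 8 the libraries of both groups did not overlap, where 51.7% of all genes tested did not. CCL2 overlapped through replicate 2 of resistant 786-O. IL1B overlapped as well and was at −0.67 (95% interval −1.66 to 0.33, adjusted p = 0.26).

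The parental lines differed for 5 of the 8 genes, where 74.2% of all genes did. 786-O was higher than A498 for CXCL1 (log2 fold change 1.91) and CXCL5 (9.69), and lower for CXCL2 (−0.49), CCL2 (−4.14) and IL1B (−3.94). Of all genes, 38.2% were higher and 36.1% lower. CXCL8 was at 0.09 (95% interval −0.10 to 0.28, adjusted p = 0.36).

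The change from A498 to resistant A498 differed from that of 786-O to resistant 786-O for all 8 genes tested, by a test of the difference itself, where 68.3% of all genes differed. It was the lower of these changes for 7 genes (34.4% of all genes) and the higher for CXCL5 (33.9% of all genes).

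CXCL1, CXCL2, CXCL3 and CXCL8 were lower in resistant A498 than in each of the 3 other groups, a criterion chosen after the values were seen. These are 4 of the 8 genes tested, where 6.79% of all genes tested met it. The same 4 genes met it without replicate 2 of resistant 786-O. CXCL3 is the least firm of them. Its call was lost in 10 of 23 alternative settings against 786-O, in 3 against resistant 786-O and in 2 against A498. Each of these counts includes the demand for a change over 2-fold, which changes of this size fail by construction. None of the 8 was higher in resistant A498 than in each other group, where 7.27% of all genes were. Summed over the 10 genes, the libraries held 165 to 166 CPM in 786-O, 113 to 126 in resistant 786-O, 113 to 125 in A498 and 27 to 30.5 in resistant A498. In bulk libraries, fewer cells that make a transcript and less transcript per cell cannot be told apart.

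Per transcript length, the make-up of this summed signal differed between groups. CXCL5 held 48.6% ± 1.27 (SD, n = 3) of the summed CPM per kilobase in 786-O and CXCL8 32.6% ± 0.884. In resistant 786-O CXCL8 led with 38.8% ± 1.54, followed by CXCL5 with 30.9% ± 9.01 and CCL2 with 16.6% ± 7.31, the last at 8.23% in its lowest library. CCL2 held 72.7% ± 0.277 in A498. In resistant A498 CXCL5 held 36.7% ± 2.37, CCL2 32.8% ± 3.72 and CXCL8 16.8% ± 2.62. The same 3 genes led in both resistant groups, in another order, and CXCL5 was at 0.0379% in A498.

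**Figure D3:**
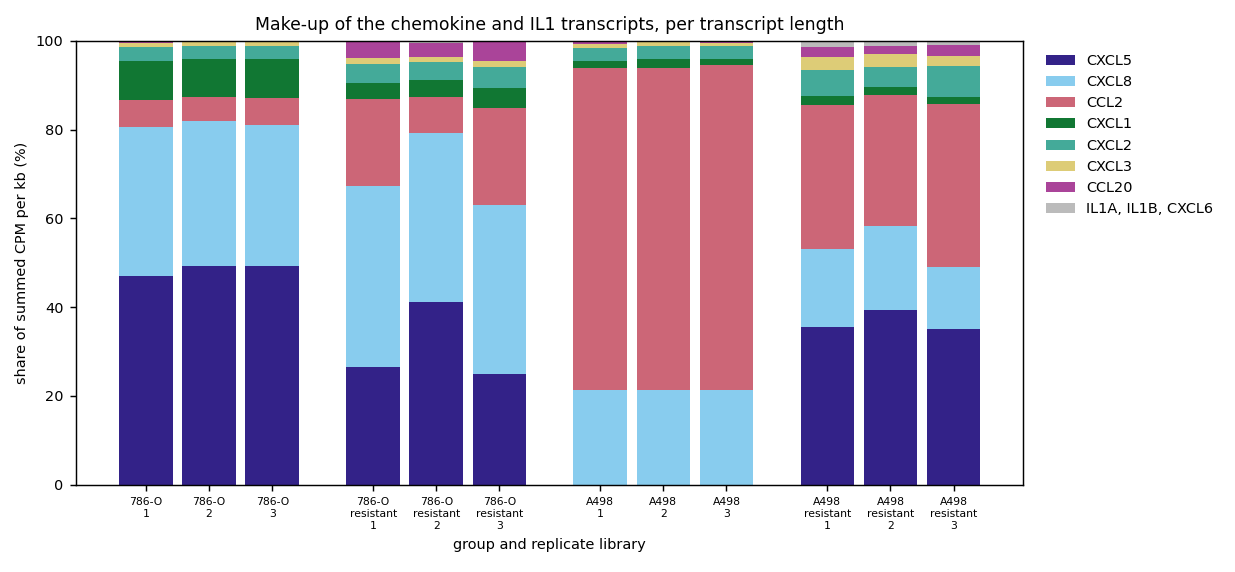
Share of each gene in the summed CPM per kilobase of canonical transcript (percent, vertical axis) in each of the 12 libraries, by group and replicate. CXCL5 and CXCL8 fill most of the bars of 786-O, CCL2 fills most of the bars of A498, and the resistant A498 bars are split mainly between CXCL5, CCL2 and CXCL8.

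Most receptors for these ligands were below the filter on low counts. Of 8 receptor genes 3 were tested, namely IL1R1, IL1RAP and IL1R2, the last a decoy that binds IL1 without signalling. CXCR1, CXCR2, CCR2, CCR6 and ACKR1 did not pass the filter. IL1R1 fell in resistant 786-O against 786-O (log2 fold change −0.49, SE 0.14, adjusted p = 0.0049) and in resistant A498 against both 786-O (−0.42, adjusted p = 0.018) and A498 (−0.97, adjusted p = 1.9e-05). IL1RAP was lower by 0.45 on the log2 scale in resistant 786-O and by 0.39 in resistant A498 against 786-O, and higher by 0.54 in resistant A498 against A498. The signalling receptor for IL1 was thus read in every group, at 17.1 to 35.2 CPM on average.

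Of 12 NF-kB subunits and inhibitors, 6 were higher and 3 lower in resistant 786-O than in 786-O. The shares of all genes tested were 35% higher and 33.5% lower. The median log2 fold change of the 12 was 0.03, beside 0.03 for all genes. TNFAIP3, an NF-kB-induced inhibitor of the pathway, rose 1.83-fold in resistant 786-O (log2 fold change 0.87, adjusted p = 7.2e-07), and NFKB1 fell by 0.45 on the log2 scale. In resistant A498 1 was higher and 8 lower against 786-O (median −0.38), and 4 were higher and 5 lower against A498 (median −0.10). Shares of all genes, higher and lower, were 31.6% and 32.1% against 786-O, and 36.3% and 36.4% against A498. NFKBIA, the inhibitor that NF-kB induces in a feedback loop, fell by 1.22 on the log2 scale against 786-O (adjusted p = 2e-09). TNFAIP3 fell by 0.99 (adjusted p = 5e-07), and NFKB2, a subunit of the non-canonical pathway, fell by 1.05 against A498 (adjusted p = 2.2e-10). NFKBIZ, an atypical nuclear member of the inhibitor family, had the widest change against A498 and was higher there by 1.74 (adjusted p = 9e-09), beside −0.11 against 786-O (adjusted p = 0.41). REL, a subunit, was higher with either reference, by 0.85 against A498 (adjusted p = 0.00067) and by 0.81 against 786-O (adjusted p = 0.00083). NFKB2, RELB, NFKBIA and TNFAIP3, 4 of the 12, were lower in resistant A498 than in each other group, where 6.79% of all genes were. These 4 were named after their values were seen.

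Of 10 other genes known to be induced by NF-kB, 4 were higher and 6 lower in resistant 786-O than in 786-O (median log2 fold change −0.21). The shares of all genes were 35% higher and 33.5% lower. ICAM1, an adhesion molecule for leukocytes, rose 1.76-fold and IL6 1.67-fold in resistant 786-O, while CSF2, which encodes GM-CSF, fell 2.02-fold. The log2 fold change of CSF2 was −1.01, or −1.45 without replicate 2 of resistant 786-O. Without replicate 2 of resistant 786-O the calls of PTGS2 (higher), TNFAIP2 and TNFAIP6 (both lower) were lost, with adjusted p of 0.051, 0.081 and 0.1. In resistant A498 2 were higher and 7 lower against 786-O (median −0.56), and 1 was higher and 8 lower against A498 (median −0.75). Shares of all genes were 31.6% and 32.1% against 786-O, and 36.3% and 36.4% against A498. The 2 that were higher than in 786-O were LCN2, by 4.84 on the log2 scale (adjusted p = 4.3e-07), and PTGS2, by 1.54. They averaged 0.801 and 0.947 CPM in resistant A498, with 3 reads of LCN2 in sum in 786-O. Against A498 their log2 fold changes were −0.81 and −1.03. CSF2 had the widest fall of the 10, by 4.57 on the log2 scale against 786-O (SE 0.31, adjusted p = 8.2e-09) and by 3.92 against A498 (SE 0.33, adjusted p = 3.7e-08). IL6 fell by 1.21 against 786-O (adjusted p = 2.3e-08) and by 1.38 against A498 (adjusted p = 2.8e-09). BIRC3, CSF2, IL6 and PTX3, 4 of the 10, were lower in resistant A498 than in each other group, where 6.79% of all genes were. These 4 too were named after their values were seen.

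**Figure D4:**
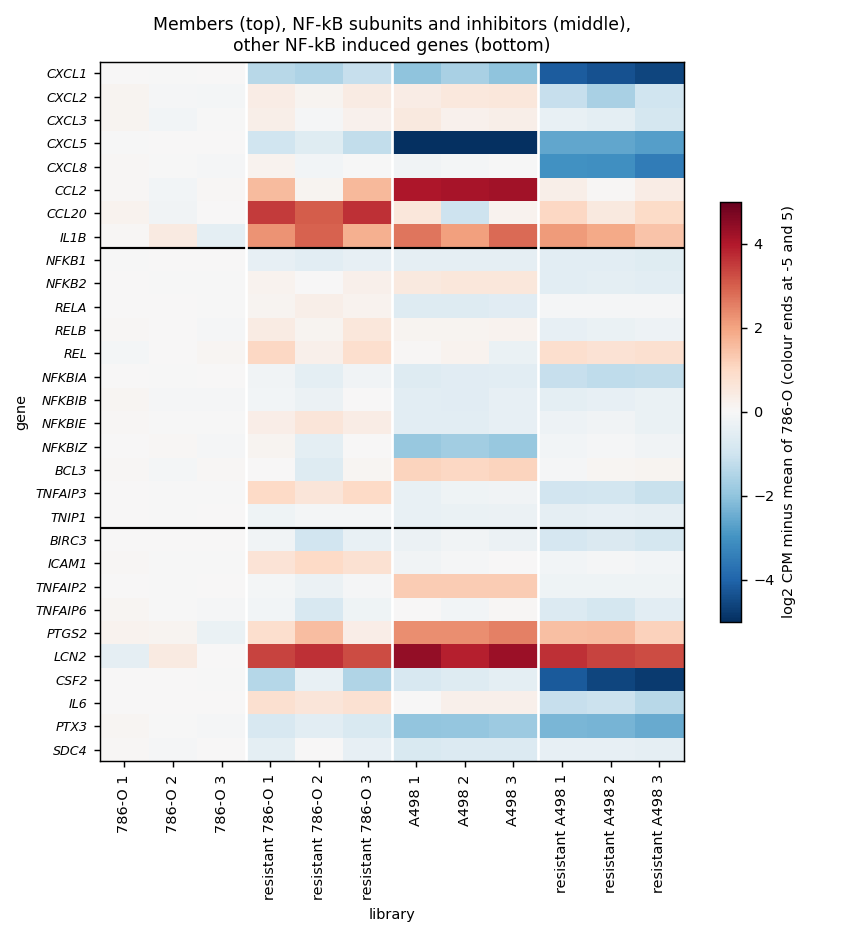
Log2 CPM (prior count 2) minus the mean of 786-O in each of the 12 libraries, for the 8 genes tested (top), 12 NF-kB subunits and inhibitors (middle) and 10 other NF-kB induced genes (bottom). In the 3 resistant A498 libraries CXCL1, CXCL8 and CSF2 are the darkest blue. CXCL5, CXCL2, NFKBIA, TNFAIP3, IL6 and PTX3 are also blue there, while LCN2, IL1B and PTGS2 are red. CXCL5 is beyond the colour scale in A498.

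Along the route from the IL1 receptor to NF-kB, 4 of 12 genes were higher and 7 lower in resistant 786-O than in 786-O (median log2 fold change −0.23). The shares of all genes were 35% higher and 33.5% lower. IRAK1, a kinase of the receptor complex, fell 1.5-fold (adjusted p = 1.3e-08), and MYD88, the adaptor of the receptor, rose 1.39-fold (adjusted p = 3.7e-05). In resistant A498 5 were higher and 4 lower against A498, and 4 were higher and 5 lower against 786-O. Shares of all genes were 36.3% and 36.4% against A498, and 31.6% and 32.1% against 786-O. IRAK2, a further kinase of this complex, fell by 1.90 on the log2 scale against A498 (adjusted p = 7.9e-08) and by 1.41 against 786-O (adjusted p = 3.2e-06). TAB3, an adaptor of the kinase TAK1, was higher by 1.42 against A498 (adjusted p = 2e-09) and by 0.60 against 786-O (adjusted p = 2.1e-05). With either parental reference IRAK2 was therefore lower and TAB3 higher. Set against each of the 3 other groups, resistant A498 was lower for IRAK2 and IKBKG and higher for TAB3. By this criterion 6.79% of all genes were lower and 7.27% higher.

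Of 4 genes of IL1B processing, 3 were higher and 1 lower in resistant 786-O than in 786-O. The shares of all genes were 35% higher and 33.5% lower. NLRP3, the sensor of the inflammasome, fell by 2.90 on the log2 scale from 5.01 to 0.675 CPM (adjusted p = 8.2e-08), and GSDMD, which forms the pore for IL1B release, rose 1.39-fold. CASP1, which encodes the cleaving enzyme caspase-1, was at 0.201 CPM in 786-O and 2.27 in resistant 786-O (log2 fold change 3.43, adjusted p = 4e-05), and its log2 fold change was 2.60 without replicate 2 of resistant 786-O. In resistant A498 CASP1 was at 1.56 CPM, lower by 1.95 on the log2 scale than in A498 at 6.04 CPM (adjusted p = 0.00031) and higher by 2.91 than in 786-O (adjusted p = 0.00062). NLRP3 was at 1.83 CPM in resistant A498, lower by 1.48 than in 786-O (adjusted p = 6.3e-05) and higher than in A498, at 0.0716 CPM (adjusted p = 7.9e-07). For both genes the direction in resistant A498 turned with the parental reference.

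The AU-rich word ATTTA was dense in the 3′ untranslated regions of most of the 10 genes. It occurred 14 times per kilobase in CXCL2, 10.4 in CXCL3, 9.84 in IL1B, 7.77 in CXCL1 and 7.19 in CXCL8, beside a median of 1.55 over 19195 coding genes. CCL2 had the lowest density of the group with 2.66 per kilobase, and CXCL5 had 5.51. The 4 genes that were lowest in resistant A498 lay between 7.19 and 14 per kilobase, and IL1B, which was not lowest there, was within that range. Further, 9 genes for proteins that act on mRNA decay were followed, of which not all act through AU-rich elements. In resistant A498 3 were higher and 5 lower against 786-O, and 3 higher and 3 lower against A498. Shares of all genes were 31.6% and 32.1% against 786-O, and 36.3% and 36.4% against A498. ZFP36, which encodes the decay factor tristetraprolin, rose 1.87-fold in resistant 786-O and 1.6-fold in resistant A498 against 786-O, while its log2 fold change in resistant A498 against A498 was −0.23 (adjusted p = 0.06). ZC3H12A, an endonuclease that cuts inflammatory mRNAs, fell in resistant A498 by 0.85 on the log2 scale against 786-O and by 0.51 against A498.

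The genes whose levels followed CXCL8 most closely over the 12 libraries, among 12870 genes compared, were SH3RF2 (Pearson r = 0.989), RPL35P2 (0.987) and NELFE (0.984). RPL35P2 is a ribosomal pseudogene whose reads may belong to related copies. For IL1B they were MBD4 (0.957), LDAF1 (0.956) and GLMP (0.955). The 12 points share 4 groups and their batches, so these values mostly describe group means.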

How the data were processed

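The authors prepared stranded poly(A) libraries, and the submitters' notes and the study's methods name Trimmomatic 0.36.6, HISAT2 2.1.0 on GRCh38 and featureCounts 1.6.3 over GENCODE genes. They deposited raw counts per gene and library, with no normalization. Here the counts were filtered with filterByExpr (19929 genes), normalized by TMM and fitted with edgeR 4.0.16 (R 4.3.3) as 1 quasi-likelihood model of 4 group means over 12 libraries. The adjusted p is Benjamini-Hochberg's over all 19929 genes, called at 0.05. Log2 fold changes used a prior count of 0.125, and their SE was taken from the F statistic. A gene with at most 3 reads in every library of a group was treated as at the floor there. Ratios of few counts carry exact 95% intervals for counting error only. Positions, transcript lengths and untranslated regions came from GENCODE 44. Alternatives used limma 3.58.1 and DESeq2 1.42.0, and the code was tested on simulated data. Members and lists were chosen with earlier results of these data known. From each other list, up to 4 genes per comparison were named, those with the largest changes among called genes with at least 5 CPM and no overlap of libraries. Some genes outside this rule are named as well, for their direction, their role or a lost call. No 2 libraries agreed within sampling noise.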

Additional observations from a re-analysis of the deposited data

Results flagged for a closer look

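The change with resistance differed between the labelled cell line pairs for all 8 genes tested, by edgeR's test of the difference itself, where 68.3% of all genes tested differed. Taken as the change of resistant A498 against A498 minus that of resistant 786-O against 786-O, the difference in log2 fold change was −1.25 for CXCL1, −2.06 for CXCL2, −1.14 for CXCL3, −3.10 for CXCL8, −5.16 for CCL2, −2.95 for CCL20 and −4.60 for IL1B. It was 7.97 for CXCL5. 7 of the 8 were negative, where 34.4% of all genes were lower and 33.9% higher. These values take A498 as the reference of libraries that stood closer to 786-O. By arithmetic, each difference is the sum of resistant A498 against resistant 786-O and of 786-O against A498. These parts were −1.02 and −4.14 for CCL2, −1.72 and 9.69 for CXCL5 and −0.67 and −3.94 for IL1B, with the parental part the larger. The parental part was the smaller for CXCL1 (−3.16 and 1.91), CXCL2 (−1.57 and −0.49) and CXCL3 (−0.77 and −0.37). It was also the smaller for CXCL8 (−3.20 and 0.09) and CCL20 (−2.76 and −0.19).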

How the results depend on the processing

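Of 136 recomputed counts of genes called, 130 stayed within 1.5 times the main count. With at least 10 counts in every library, where by construction only 4 of the 8 genes remained, the counts were 2 for resistant 786-O against 786-O, 3 for resistant A498 against 786-O, 3 for 786-O against A498, 4 for resistant A498 against resistant 786-O and 4 for the difference of the changes. The study's kind of test on raw counts, unadjusted and without normalization, called 3 for resistant 786-O against 786-O. With 1 library left out, the counts ran from 5 to 6 for resistant 786-O against 786-O, 6 to 7 for resistant A498 against A498, 5 to 8 for resistant A498 against 786-O, 5 for 786-O against A498, 6 to 7 for resistant A498 against resistant 786-O and 8 for the difference. Same-numbered libraries did not deviate together (3 of 12 correlated best with their own number), and the replicate block gave 5, 6, 7, 5, 7 and 8 calls in this order.

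Single genes kept direction and call in 1001 of 1058 settings. No called change reversed except CXCL2 between 786-O and A498, at 0.06 on raw counts. The other reversals were of differences that had not passed. On raw counts these were CCL2 at −0.48 for resistant A498 against 786-O, and CCL20 at 0.33 and CXCL3 at 0.17 for 786-O against A498. CCL20 in the latter was 0.89 with libraries thinned to the smallest, and ran from −0.52 to 0.34 with 1 library left out, the highest without A498 replicate 1. CXCL8 in resistant 786-O against 786-O ran from −0.06 to 0.08 with 1 library left out. The cause was not tested. Depth limits IL1A, IL1B and CXCL6, and CCL20 outside resistant 786-O.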

Other observations

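Of 21 chemokine genes outside the 10, 8 were tested. Against 786-O, resistant 786-O had 5 of them higher and 0 lower by edgeR's quasi-likelihood test, where 35% and 33.5% of all genes were. The median log2 fold change of the 8 was 2.88, beside 0.03 for all genes. CCL5, which draws T cells and monocytes, had 1.26, 1.86 and 1.77 CPM in 786-O and 36.4, 88.3 and 37.9 in resistant 786-O, where replicate 2 was the highest. Its libraries did not overlap, and the log2 fold change was 5.04 (SE 0.33, adjusted p = 5e-09), or 4.49 without replicate 2, a setting added for these genes after the data were seen. CXCL16, the ligand of CXCR6, rose by 2.95 on the log2 scale (SE 0.19), and CX3CL1, a membrane-bound ligand of CX3CR1, rose 4.27-fold (adjusted p = 3.1e-08).

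In resistant A498 all 8 were higher than in 786-O (median 3.00), while 3 were higher and 3 lower than in A498 (median 0.07). Of all genes, 31.6% were higher than in 786-O, and 36.3% were higher and 36.4% lower than in A498. CCL5 was higher with either reference, by 4.82 on the log2 scale against 786-O (adjusted p = 1.1e-08) and by 0.79 against A498 (adjusted p = 0.011). CCL26, an eosinophil attractant, fell by 5.55 against A498, from 12.3 to 0.256 CPM, and was called higher than in 786-O, at 0.0846 CPM (adjusted p = 0.028), with libraries that overlapped. CX3CL1 rose 16.5-fold against A498 (adjusted p = 2.5e-10) and 3.51-fold against 786-O. CCL28, a ligand of CCR10, rose 12.7-fold against A498 (adjusted p = 6.4e-13) and 1.49-fold against 786-O. It was higher in resistant A498 than in each other group, where 7.27% of all genes were. The comparisons with 786-O share the 786-O libraries.

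Of 9 further genes of the interleukin-1 family 4 were tested, and all 4 were higher in resistant 786-O than in 786-O (median log2 fold change 4.38). The share of all genes that were higher was 35%. The widest rises were those of genes for receptor antagonists. IL1RN rose by 5.42 on the log2 scale (adjusted p = 4.9e-09), from 0.0496 to 2.26 CPM. IL36RN rose by 5.22 (adjusted p = 3.3e-05), or by 4.39 without replicate 2 of resistant 786-O. They had 6 and 3 reads in sum in 786-O. In resistant A498 IL1RN was higher by 4.05 against 786-O (adjusted p = 1.3e-06), beside 0.43 against A498 (adjusted p = 0.2). IL36B, an agonist of the IL36 receptor, had 0.868, 0.879 and 0.577 CPM in 786-O and 4.58, 18.4 and 4.24 in resistant 786-O (log2 fold change 3.55, SE 0.52, adjusted p = 2.2e-05). Without replicate 2, the highest, it was 2.52, a fold of 5.74 in place of 11.7 (adjusted p = 2.4e-16). IL18, a cytokine that caspase-1 activates, fell by 2.44 in resistant A498 against A498 (SE 0.17, adjusted p = 3.3e-09), from 21.9 to 4.01 CPM, and stood at 4.73 CPM in 786-O.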
